A study of Arabidopsis thaliana with 14 samples.

Results

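The 35 genes described here serve protein folding, quality control and stress signalling in the endoplasmic reticulum (ER) of Arabidopsis thaliana. They were chosen by locus: every array probe whose transcript accession, without its version, belonged to 1 of the 35 loci was taken. The array held probes for 25433 genes in all. All 35 members had a probe, 50 probes in total, and 34 members were bright enough to be tested among 18307 genes. They divide into 7 stress sensors and transcription factors, 22 chaperones and folding enzymes, 5 genes of ER-associated degradation and the cell death suppressor gene BI1. The chaperones comprise 8 genes of the BIP system and its partners, 8 of disulfide bond formation and 6 of the lectin cycle.

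Secreted and membrane proteins fold in the ER, where BIP, an HSP70-type chaperone, holds unfolded chains, disulfide isomerases pair their cysteines, and calnexin and calreticulin bind their sugar chains. When unfolded proteins build up, plants switch on the unfolded protein response through an arm in which the membrane protein IRE1 splices the transcript of the factor bZIP60, and an arm in which bZIP17 and bZIP28 travel to the Golgi and are released from the membrane by proteolysis. Both arms raise transcripts of chaperones and of the machinery that sends misfolded proteins back to the cytosol for destruction. An array probe reads the total level of a transcript, so that splicing of BZIP60 and cleavage of BZIP17 and BZIP28 were not measured here.

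RNA came from whole seedlings of 2 genotypes in the Col-0 background, 7 days old when moved to new plates. The groups were 35S:YFP-AFL1 at low water potential (3 arrays), 35S:YFP-AFL1 on control plates (3 arrays), wild type at low water potential (4 arrays) and wild type on control plates (4 arrays). Low water potential was -1.2 MPa, imposed with polyethylene glycol in the agar, and all seedlings were harvested 10 h after transfer. AFL1 is the gene At14a-like 1, here fused to a yellow fluorescent protein and driven by the 35S promoter, which is active in most plant tissues. The labels do not say whether the line was 1 or several transformants or whether replicates came from separate plates, so the p-values cover the variation among these arrays alone, part of which may be technical.

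Levels below are log2 of the background-corrected signal minus the 75th percentile of that array, so that 0 is the 75th percentile and 1 unit is a 2-fold difference. The percentile lay between 796.2 and 1591 on the 14 arrays. From 59.47% to 66.96% of probes exceeded background clearly (by the scanner software's test, called well above background here), and no array had saturated spots. A gene was called changed at a limma adjusted p under 0.05 over the 18307 genes. The AFL1 probe read 3.98 ± 0.14 in 35S:YFP-AFL1 and 3.67 ± 0.33 in wild type at low water potential (SD, n = 3 and 4), and 2.34 ± 0.24 and -0.06 ± 0.54 on control plates, where the genotype difference was 2.41 ± 0.26 (SE, adjusted p = 0.00453). At low water potential the genotype difference of AFL1 was 0.32 and was not called, and its other probes gave -0.24 and 0.26. The arrays lay on 5 slides: all 35S:YFP-AFL1 control arrays shared slide 4 with wild-type control replicate 1, all 35S:YFP-AFL1 stress arrays shared slide 5 with wild-type stress replicate 1, and the other wild-type arrays were on slides 1 to 3. Both wild-type replicate 1 arrays stood apart from the other wild-type arrays for several of the genes below, so results are also given without them or within slides where that matters.

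At low water potential most sensors and factors rose, the chaperones divided by role, and most degradation genes were not called. In 35S:YFP-AFL1 seedlings 22 of the 34 tested genes were called, 19 higher and 3 lower (64.7%), against 63.3% of all genes, 30.1% higher and 33.3% lower. In wild type 18 were called, 16 higher and 2 lower (52.9%), against 64.1% of all genes, 30.7% higher and 33.4% lower. The share of members called was thus near that of all genes in 35S:YFP-AFL1 and below it in wild type, while among the calls higher ones outnumbered lower ones. The median log2 fold change of the members was 0.56 in 35S:YFP-AFL1 and 0.36 in wild type, against -0.04 and -0.03 over all genes. Called changes of at least 2-fold were few, with 6 members in 35S:YFP-AFL1 and 4 in wild type (17.6% and 11.8%), against 37.5% and 33.6% of all genes. With arrays centred on their median, 21 members were higher and 1 lower in 35S:YFP-AFL1, and 19 and 0 in wild type, against 65.7% of all genes called in 35S:YFP-AFL1 (6993 higher, 5035 lower) and 65.1% in wild type (6786 and 5135). Stress and control arrays did not overlap for 20 members that were higher and 10 that were lower in 35S:YFP-AFL1, against 76.5% of all genes (37% higher, 39.5% lower) in groups of 3 arrays, and for 14 higher and 0 lower in wild type in groups of 4 arrays, against 53.3% (25.9% and 27.4%). Since whole seedlings were used, fewer cells of a type and less RNA per cell cannot be told apart.

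**Figure D1:**
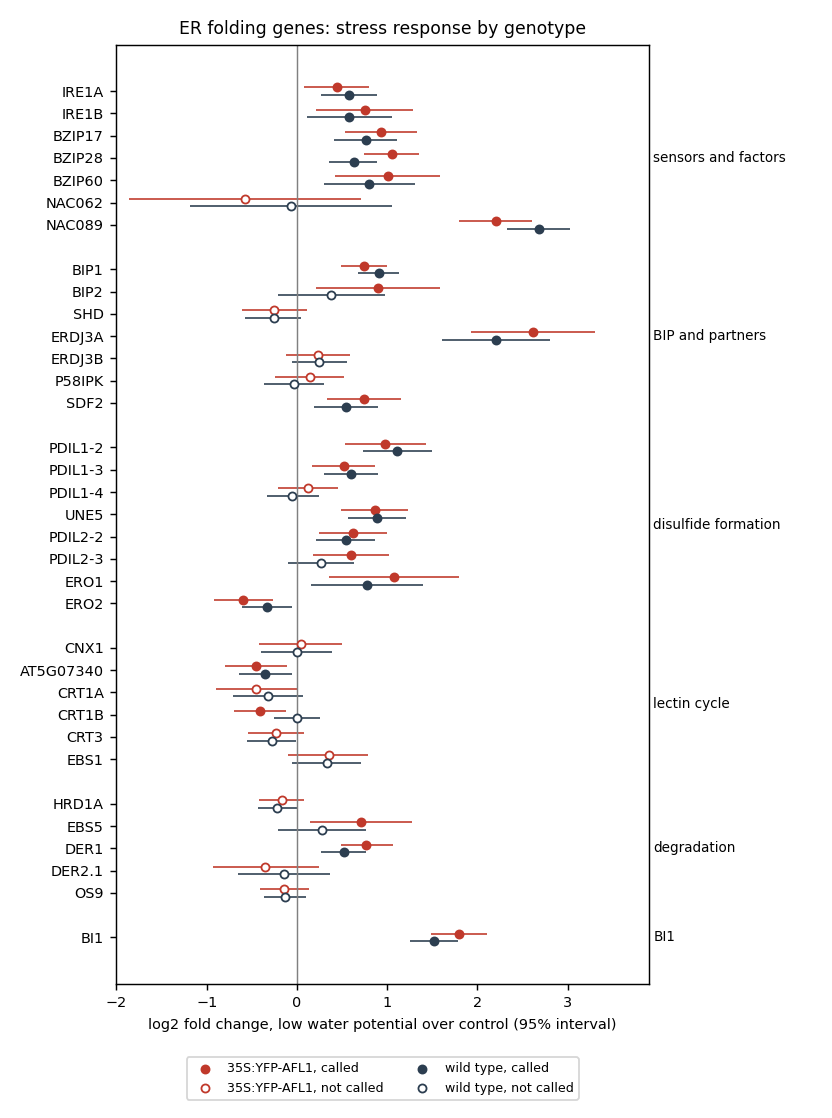
Log2 fold change, low water potential over control, with 95% interval for each of the 34 tested genes, ordered by role; red is 35S:YFP-AFL1 (n = 3 and 3), dark blue is wild type (n = 4 and 4), and filled points passed an adjusted p of 0.05. NAC089, ERDJ3A and BI1 lie farthest to the right in both genotypes, and the lectin and degradation genes cluster around 0.

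By role, 6 of 7 sensors and factors rose in both genotypes, with a median log2 fold change of 0.93 in 35S:YFP-AFL1 and 0.63 in wild type. Over all genes, 30.1% were called higher and 33.3% lower in 35S:YFP-AFL1, and 30.7% and 33.4% in wild type. Of the 21 tested chaperones and folding enzymes, 10 rose and 3 fell in 35S:YFP-AFL1 (median 0.35), and 8 rose and 2 fell in wild type (median 0.27). Of the 5 degradation genes, 2 rose in 35S:YFP-AFL1 (median -0.14) and 1 rose in wild type (median -0.13). Within the chaperones the disulfide group had medians of 0.61 and 0.57 in 35S:YFP-AFL1 and wild type, the BIP group 0.74 and 0.38, and the lectin group -0.32 and -0.14. With arrays centred on their median, which shifted the median of all genes to 0.17 in 35S:YFP-AFL1 and 0.13 in wild type, the lectin medians were -0.12 and 0.02 and the degradation medians 0.06 and 0.03, so that their sign depends on the scaling.

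**Figure D2:**
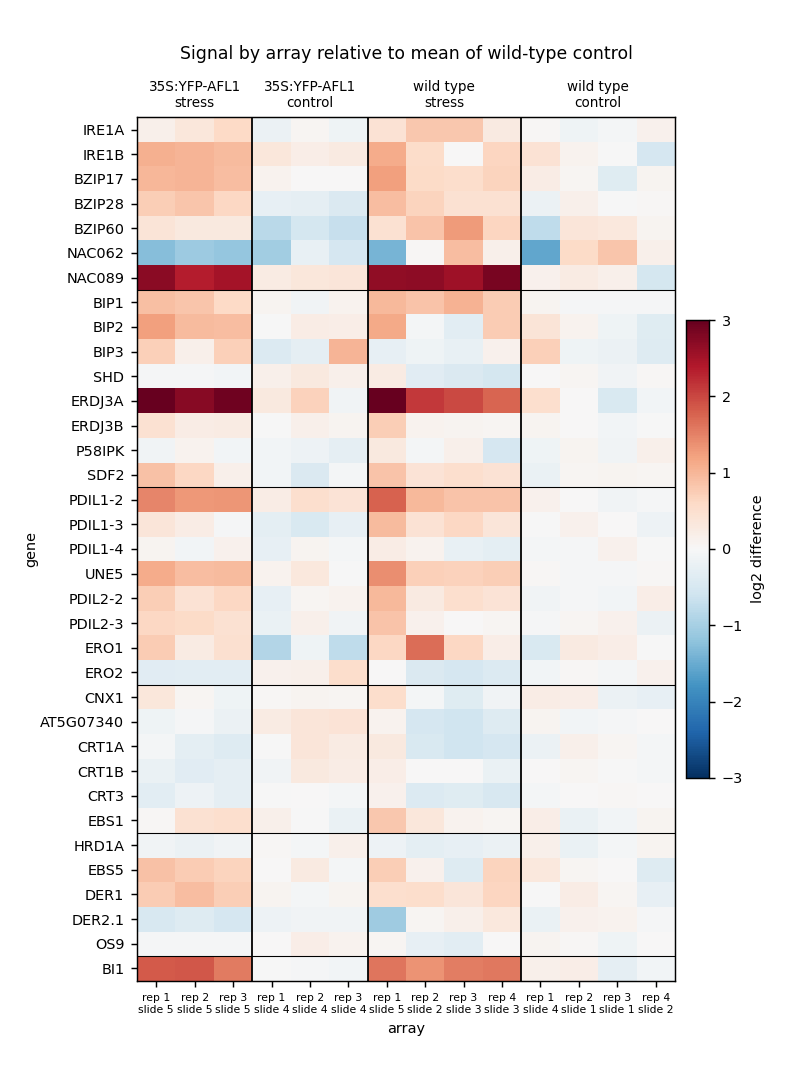
Log2 level of each of the 35 genes on each of the 14 arrays, as the difference from the mean of the wild-type control arrays of that gene; columns are arrays with replicate and slide, and rows are genes in order of role. NAC089, ERDJ3A and BI1 are red on all 7 stress arrays, whereas NAC062 is blue on the slide 4 and slide 5 arrays, whichever the treatment; BIP3 was near background throughout.

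Among the signalling genes the largest response was that of NAC089 (AT5G22290), which encodes a transcription factor held at the ER membrane and is known for a part in cell death under ER stress. Its levels were 1.07, 0.70 and 0.85 at low water potential and -1.40, -1.31 and -1.28 on control plates in 35S:YFP-AFL1. In wild type they were 1.02, 1.03, 0.90 and 1.19 at low water potential and -1.51, -1.40, -1.50 and -2.18 on control plates. All stress arrays thus lay above all control arrays in each genotype. NAC089 rose by 2.20 ± 0.18 in 35S:YFP-AFL1 (SE, adjusted p = 2.65e-07) and by 2.68 ± 0.16 in wild type (adjusted p = 9.15e-09), or 4.6-fold and 6.41-fold. The difference of the responses was -0.48, with a 95% interval of -1.01 to 0.05 (adjusted p = 0.541).

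The membrane-held bZIP factors rose by smaller amounts. BZIP28 (AT3G10800) read 1.89, 1.99 and 1.77 at low water potential and 0.90, 0.89 and 0.72 on control plates in 35S:YFP-AFL1. Its wild-type levels were 2.07, 1.83, 1.60 and 1.62 at low water potential and 0.98, 1.30, 1.14 and 1.19 on control plates. No stress array overlapped a control array, and BZIP28 rose by 1.05 ± 0.14 in 35S:YFP-AFL1 (adjusted p = 2.44e-05) and by 0.63 ± 0.12 in wild type (adjusted p = 0.000563). BZIP17 (AT2G40950), which acts beside BZIP28 and is also known from salt stress, had 1.52, 1.54 and 1.46 at low water potential and 0.64, 0.55 and 0.55 on control plates in 35S:YFP-AFL1. In wild type BZIP17 had 1.76, 1.11, 1.06 and 1.20 at low water potential and 0.76, 0.59, 0.16 and 0.61 on control plates. The groups again did not overlap, and replicate 1 was the highest wild-type array of each treatment. BZIP17 rose by 0.93 ± 0.19 in 35S:YFP-AFL1 (adjusted p = 0.000691) and by 0.76 ± 0.16 in wild type (adjusted p = 0.00106).

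BZIP60 (AT1G42990), the factor whose transcript IRE1 splices, had 2.83, 2.74 and 2.73 at low water potential and 1.64, 1.91 and 1.74 on control plates in 35S:YFP-AFL1. Wild-type BZIP60 levels were 2.90, 3.29, 3.71 and 3.08 at low water potential and 1.67, 2.81, 2.77 and 2.52 on control plates. The stress arrays lay above the control arrays in both genotypes, by a narrow margin in wild type, where control replicate 1 sat with the 35S:YFP-AFL1 control arrays. The total BZIP60 transcript rose by 1.01 ± 0.27 in 35S:YFP-AFL1 (adjusted p = 0.0053) and by 0.80 ± 0.23 in wild type (adjusted p = 0.0086). Without both wild-type replicate 1 arrays the wild-type value was 0.66 and was still called (adjusted p = 0.00322). Within scan day 1, which holds 1 wild-type stress array and 3 wild-type control arrays, it was 0.59 (adjusted p = 0.0601), with the single array taken to vary like the others.

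The IRE1 sensors rose modestly. IRE1A (AT2G17520) had -1.21, -1.03 and -0.76 at low water potential and -1.53, -1.31 and -1.49 on control plates in 35S:YFP-AFL1, and in wild type -0.92, -0.56, -0.55 and -1.09 at low water potential and -1.32, -1.49, -1.41 and -1.22 on control plates. IRE1B (AT5G24360) had -0.02, -0.06 and -0.15 at low water potential and -0.76, -0.88 and -0.83 on control plates in 35S:YFP-AFL1, and in wild type 0.02, -0.53, -1.07 and -0.45 at low water potential and -0.66, -0.99, -1.11 and -1.60 on control plates. Only IRE1B in wild type had overlapping stress and control arrays. The log2 fold changes of IRE1A were 0.44 ± 0.17 in 35S:YFP-AFL1 (adjusted p = 0.0331) and 0.58 ± 0.14 in wild type (adjusted p = 0.00318). Those of IRE1B were 0.75 ± 0.25 (adjusted p = 0.0189) and 0.58 ± 0.22 (adjusted p = 0.0318). Single arrays decided most of these calls. For IRE1A in 35S:YFP-AFL1 the call ended without stress replicate 2 or 3 or control replicate 1 or 3, with 0.32 to 0.46. For IRE1B it ended in 35S:YFP-AFL1 without stress replicate 1 or control replicate 2, with 0.72 each time, and in wild type without stress replicate 1, 2 or 4 or control replicate 3 or 4, with 0.40 to 0.59.

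NAC062 (AT3G49530), a factor held at the plasma membrane that also moves to the nucleus under ER stress, was not called in either genotype. It read 0.79, 0.97 and 0.91 at low water potential and 1.02, 1.83 and 1.55 on control plates in 35S:YFP-AFL1. In wild type it read 0.66, 2.10, 2.99 and 2.22 at low water potential and 0.49, 2.64, 2.89 and 2.22 on control plates. Replicate 1, on slides 5 and 4, was thus the lowest wild-type array in both treatments, below every 35S:YFP-AFL1 array of its treatment, and the other 3 wild-type arrays of each treatment were above all 35S:YFP-AFL1 arrays. The responses of NAC062 were -0.58 in 35S:YFP-AFL1 (95% interval -1.86 to 0.71) and -0.07 in wild type (-1.18 to 1.05), so that the wild-type interval includes a 2-fold change in either direction. With only the groups compared in the fit, the 35S:YFP-AFL1 response had an adjusted p of 0.0398.

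**Figure D3:**
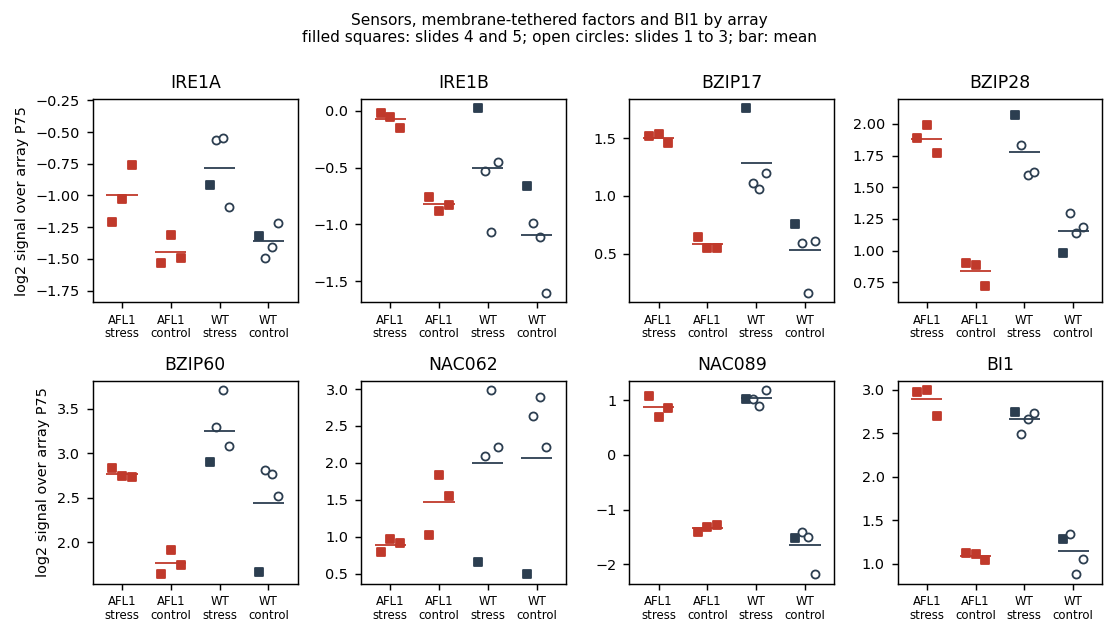
Log2 level relative to the 75th percentile of the array for the 7 sensors and factors and BI1, 1 point per array, with the mean of each group as a bar; filled squares are arrays of slides 4 and 5 and open circles those of slides 1 to 3. For BZIP60 and NAC062 the filled wild-type control point, replicate 1, lies among or below the 35S:YFP-AFL1 control points and apart from the other wild-type control arrays.

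The BIP system responded unevenly. BIP1 (AT5G28540) encodes an HSP70 of the ER and had 1.47, 1.41 and 1.18 at low water potential and 0.66, 0.48 and 0.69 on control plates in 35S:YFP-AFL1. Wild-type levels of BIP1 were 1.55, 1.43, 1.62 and 1.33 at low water potential and 0.66, 0.54, 0.55 and 0.55 on control plates. All stress arrays lay above all control arrays, and BIP1 rose 1.68-fold in 35S:YFP-AFL1 (log2 0.74 ± 0.12, adjusted p = 0.000115) and 1.88-fold in wild type (0.91 ± 0.10, adjusted p = 4.98e-06).

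BIP2 (AT5G42020) is nearly identical to BIP1 in sequence, and how well the probes tell them apart was not tested. The brighter BIP2 probe read 3.11, 2.84 and 2.81 at low water potential and 1.87, 2.12 and 2.08 on control plates in 35S:YFP-AFL1. In wild type it read 3.03, 1.84, 1.56 and 2.65 at low water potential and 2.27, 2.00, 1.75 and 1.53 on control plates. The wild-type groups overlapped, with replicates 1 and 4 high and replicates 2 and 3 among the controls. BIP2 rose by 0.90 ± 0.32 in 35S:YFP-AFL1 (adjusted p = 0.0244; not called without stress replicate 1, 0.80, or control replicate 1, 0.82), while its wild-type value was 0.38 ± 0.27 (adjusted p = 0.238). The other BIP2 probe gave 0.64 in 35S:YFP-AFL1 and 0.78 in wild type, and the mean of both probes gave 0.58 in wild type, with an adjusted p of 0.0136. The 2 probes therefore order the genotypes differently, and the tested difference of the responses of BIP2 was 0.51 (95% interval -0.39 to 1.42, adjusted p = 0.715).

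BIP3 (AT1G09080), the stress-inducible BIP gene that is commonly used as a marker of the unfolded protein response, was close to background. Its brighter probe was well above background on 2 of 3 stress and 1 of 3 control arrays in 35S:YFP-AFL1, and on 1 of 4 stress and 1 of 4 control arrays in wild type. The BIP3 readings were -3.64, -4.19 and -3.63 at low water potential and -4.76, -4.62 and -3.34 on control plates in 35S:YFP-AFL1, and -4.61, -4.48, -4.58 and -4.22 at low water potential and -3.64, -4.49, -4.53 and -4.75 on control plates in wild type. Stress and control arrays overlapped in both genotypes, and BIP3 was left out of the tests, since in no group did it clear background on 3 arrays.

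The partners of BIP included another large change. ERDJ3A (AT3G08970) encodes a J-domain protein that drives the ATPase of BIP, and it had -1.39, -1.75 and -1.56 at low water potential and -4.19, -3.78 and -4.59 on control plates in 35S:YFP-AFL1. In wild type it had -1.46, -2.36, -2.50 and -2.74 at low water potential and -3.96, -4.46, -4.93 and -4.55 on control plates. The gene was well above background on all 7 stress arrays, on 1 of 3 control arrays in 35S:YFP-AFL1 and on 0 of 4 control arrays in wild type. It passed the background filter through its stress arrays alone, so its p-values belong to a gene kept because it was high there. ERDJ3A rose by 2.61 ± 0.32 in 35S:YFP-AFL1 (adjusted p = 8.9e-06) and was at least 3.98-fold higher in wild type (fitted adjusted p = 1.09e-05), so that a fitted change with 1 of 3 control arrays above background stands beside a lower bound, and the 2 are not comparable. That bound sets the stress mean against the higher of the probe's own signal and the lowest signal well above background on each control array.

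SDF2 (AT2G25110), whose protein forms a complex with ERDJ3B (AT3G62600) and BIP, rose by 0.74 ± 0.19 in 35S:YFP-AFL1 (adjusted p = 0.00423) and by 0.54 ± 0.17 in wild type (adjusted p = 0.0109), where it had 0.37 without both replicate 1 arrays (adjusted p = 0.0738). The other 3 partners were not called in either genotype. ERDJ3B, the J-domain partner of SDF2, had 0.23 in 35S:YFP-AFL1 and 0.24 in wild type. P58IPK (AT5G03160), another J-domain protein, had 0.14 and -0.03, and SHD (AT4G24190), the HSP90 of the ER, had -0.25 and -0.26. The other SHD probe gave -0.33 in 35S:YFP-AFL1 and -0.67 in wild type. SHD was called lower under 4 of 27 alternatives in 35S:YFP-AFL1 and 3 of 28 in wild type. Wild-type stress replicate 1 was the highest of its group for ERDJ3B (1.31, against 0.64 to 0.69 on the other 3 arrays) and for SHD (4.06, against 3.28 to 3.48). P58IPK was sensitive to scaling, with 0.54 in 35S:YFP-AFL1 (adjusted p = 0.00284) and 0.31 in wild type (adjusted p = 0.0293) after quantile normalization.

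Of the 8 genes of disulfide formation, 7 were called in 35S:YFP-AFL1 and 6 in wild type, against 63.3% and 64.1% of all genes. With the slide as a block the medians were 0.09 in 35S:YFP-AFL1 and 0.45 in wild type, instead of 0.61 and 0.57. Both blocked values lean on 1 wild-type stress array and 1 wild-type control array of slide 2. PDIL1-2 (AT1G77510), a classical protein disulfide isomerase, had 1.80, 1.64 and 1.66 at low water potential and 0.56, 0.84 and 0.74 on control plates in 35S:YFP-AFL1. PDIL1-2 levels in wild type were 2.10, 1.31, 1.19 and 1.18 at low water potential and 0.47, 0.33, 0.22 and 0.30 on control plates. No stress array overlapped a control array, and wild-type stress replicate 1 was above the other arrays of its group. PDIL1-2 rose by 0.98 ± 0.21 in 35S:YFP-AFL1 (adjusted p = 0.00101) and by 1.11 ± 0.18 in wild type (adjusted p = 0.000107), with 0.94 in wild type when both replicate 1 arrays were left out (adjusted p = 1.01e-05).

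UNE5 (AT2G47470), also named PDIL2-1, belongs to the disulfide isomerases and is named from a mutant with unfertilised embryo sacs. It read 3.20, 3.01 and 3.05 at low water potential and 2.19, 2.40 and 2.09 on control plates in 35S:YFP-AFL1, and 3.49, 2.81, 2.79 and 2.83 at low water potential and 2.12, 2.06, 2.07 and 2.13 on control plates in wild type. All stress arrays were above all control arrays, and UNE5 rose by 0.86 ± 0.17 in 35S:YFP-AFL1 (adjusted p = 0.000616) and by 0.89 ± 0.15 in wild type (adjusted p = 0.000147). The isomerase genes PDIL2-2 (AT1G04980) and PDIL1-3 (AT3G54960) also rose in both genotypes. PDIL2-2 had 0.62 in 35S:YFP-AFL1 and 0.54 in wild type, and PDIL1-3 had 0.52 and 0.60. Of the 3 PDIL1-3 probes 1 went the other way in wild type (-0.24), and the mean over the probes of PDIL1-3 was not called, at 0.38 in 35S:YFP-AFL1 (adjusted p = 0.105) and 0.28 in wild type (adjusted p = 0.153). The brightest PDIL1-3 probe itself lost its call in 35S:YFP-AFL1 without stress replicate 1 (0.42) or control replicate 2 (0.45). PDIL2-3 (AT2G32920) rose by 0.60 in 35S:YFP-AFL1 (adjusted p = 0.0163; 0.52 and not called without control replicate 1) and had 0.27 in wild type (adjusted p = 0.179), with a difference of the responses of 0.33 (adjusted p = 0.705). PDIL1-4 (AT5G60640) had 0.12 and -0.05 and was not called, and its other probe gave 0.53 in 35S:YFP-AFL1 and -0.30 in wild type.

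The ER oxidases ERO1 (AT1G72280) and ERO2 (AT2G38960), which restore oxidised disulfide isomerases, moved in opposite directions. ERO1 had -1.66, -2.16 and -1.94 at low water potential and -3.29, -2.54 and -3.18 on control plates in 35S:YFP-AFL1. In wild type ERO1 had -1.79, -0.74, -1.80 and -2.23 at low water potential and -2.87, -2.14, -2.23 and -2.43 on control plates. The groups were separate in 35S:YFP-AFL1, whereas the lowest wild-type stress array lay within the range of the controls. ERO1 rose by 1.08 ± 0.33 in 35S:YFP-AFL1 (adjusted p = 0.0119) and by 0.78 ± 0.29 in wild type (adjusted p = 0.0297). The wild-type call of ERO1 ended without stress replicate 2, the highest array (0.48, adjusted p = 0.0863), and without control replicate 1 (0.63) or 4 (0.77). ERO2 fell by 0.60 ± 0.15 in 35S:YFP-AFL1 (adjusted p = 0.00343). In wild type ERO2 fell by 0.33 ± 0.13 (adjusted p = 0.0397), but had -0.17 with median centring (adjusted p = 0.263). ERO2 was called there under 10 of 28 alternatives, and lost its call without any of wild-type replicates 2, 3 and 4 of either treatment or any 35S:YFP-AFL1 stress array (-0.35 to -0.27).

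**Figure D4:**
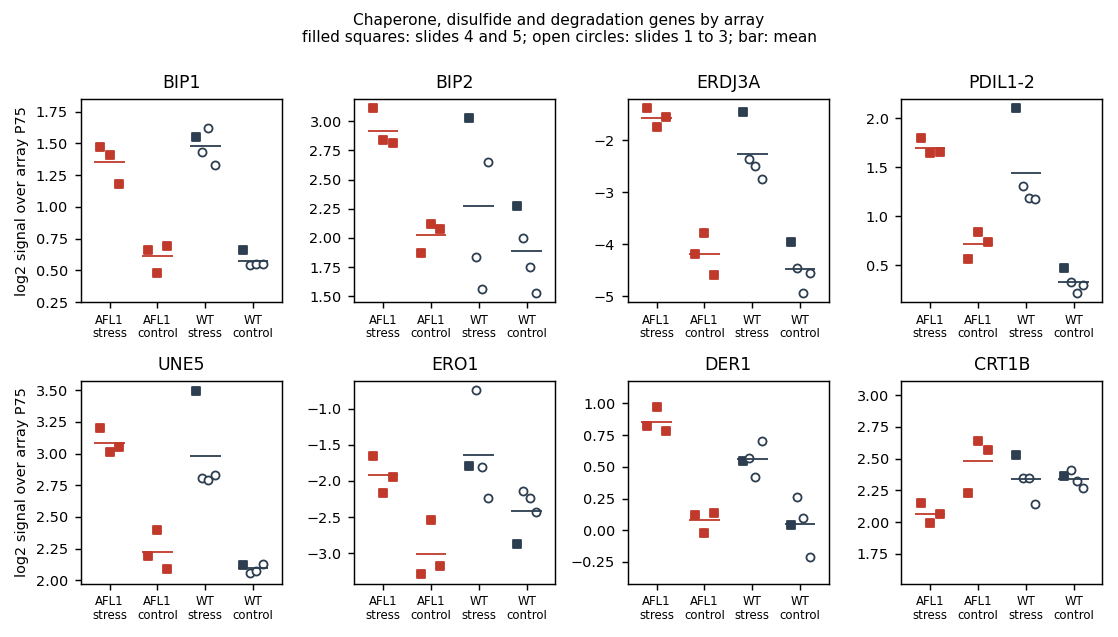
Log2 level relative to the 75th percentile of the array for 8 chaperone, disulfide and degradation genes, 1 point per array, with the mean of each group as a bar; filled squares are arrays of slides 4 and 5 and open circles those of slides 1 to 3. Wild-type stress replicate 1, the filled dark blue point, is above the other wild-type stress arrays for BIP2, ERDJ3A, PDIL1-2, UNE5 and CRT1B.

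In the lectin cycle, calnexin and calreticulin hold glycoproteins until they fold, and a glucosyltransferase marks those that have not. Of its 6 genes, 2 were called in 35S:YFP-AFL1 and 1 in wild type, against 63.3% and 64.1% of all genes (33.3% and 33.4% lower). The calls were lower for AT5G07340 and CRT1B (AT1G09210) in 35S:YFP-AFL1 and for AT5G07340 in wild type. With median centring these calls were lost and a single one, EBS1, was called higher in both genotypes, so that the direction of the lectin calls depends on the scaling. AT5G07340, which the gene table leaves unnamed, had 0.76, 0.84 and 0.70 at low water potential and 1.12, 1.25 and 1.30 on control plates in 35S:YFP-AFL1, and 0.99, 0.37, 0.29 and 0.49 at low water potential and 0.97, 0.81, 0.85 and 0.90 on control plates in wild type. Stress arrays were lower than control arrays except for wild-type stress replicate 1, the highest of all wild-type arrays. AT5G07340 fell by 0.45 ± 0.16 in 35S:YFP-AFL1 (adjusted p = 0.0225) and by 0.35 ± 0.14 in wild type (adjusted p = 0.0391), but with median centring had -0.25 (adjusted p = 0.171) and -0.19 (adjusted p = 0.234). The call ended in 35S:YFP-AFL1 without stress replicate 1 or 3 or control replicate 2 or 3 (-0.45 to -0.42), and in wild type without stress replicate 2, 3 or 4, any control replicate or 35S:YFP-AFL1 stress replicate 1 (-0.37 to -0.27).

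CRT1B, a calreticulin gene, had 2.15, 1.99 and 2.06 at low water potential and 2.23, 2.64 and 2.57 on control plates in 35S:YFP-AFL1. Its wild-type levels were 2.53, 2.35, 2.35 and 2.14 at low water potential and 2.36, 2.41, 2.32 and 2.27 on control plates. The groups were separate in 35S:YFP-AFL1 and intermixed in wild type. CRT1B fell by 0.41 ± 0.13 in 35S:YFP-AFL1 (adjusted p = 0.0167; -0.20 with median centring, adjusted p = 0.202; -0.37 to -0.33 and not called without stress replicate 2 or control replicate 2 or 3) and had 0.00 in wild type (95% interval -0.25 to 0.26). The difference of the responses was -0.41 (adjusted p = 0.471). CNX1 (AT5G61790), a calnexin gene, had 0.04 in 35S:YFP-AFL1 (95% interval -0.42 to 0.50) and 0.00 in wild type (-0.40 to 0.39). CRT1A (AT1G56340) and CRT3 (AT1G08450), the other calreticulin genes, had -0.45 and -0.23 in 35S:YFP-AFL1 and -0.32 and -0.28 in wild type, without a call. The mean over both CRT3 probes was called lower, at -0.39 in 35S:YFP-AFL1 (adjusted p = 0.0255) and -0.49 in wild type (adjusted p = 0.00284). EBS1 (AT1G71220), the glucosyltransferase that marks unfolded glycoproteins, had 0.35 and 0.33 without a call, and 0.55 (adjusted p = 0.0229) and 0.49 (adjusted p = 0.0207) with median centring.

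Of the degradation genes, DER1 rose in both genotypes, EBS5 rose in 35S:YFP-AFL1 and the other 3 were not called. The gene DER1 (AT4G29330) encodes a derlin, a membrane protein of the channel through which misfolded proteins leave the ER, and had 0.82, 0.97 and 0.78 at low water potential and 0.12, -0.02 and 0.14 on control plates in 35S:YFP-AFL1. In wild type it had 0.55, 0.57, 0.42 and 0.70 at low water potential and 0.04, 0.26, 0.10 and -0.21 on control plates. No stress array overlapped a control array. DER1 rose by 0.77 ± 0.13 in 35S:YFP-AFL1 (adjusted p = 0.000184) and by 0.52 ± 0.11 in wild type (adjusted p = 0.00136), which became 0.28 with another background correction (normexp, adjusted p = 0.0895).

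EBS5 (AT1G18260), also called HRD3A, recruits misfolded proteins to the ubiquitin ligase HRD1. It had 0.65, 0.53 and 0.44 at low water potential and -0.23, 0.03 and -0.29 on control plates in 35S:YFP-AFL1, and 0.49, -0.12, -0.62 and 0.42 at low water potential and 0.09, -0.18, -0.23 and -0.63 on control plates in wild type. The groups were separate in 35S:YFP-AFL1 only. EBS5 rose by 0.71 ± 0.26 in 35S:YFP-AFL1 (adjusted p = 0.0297) and had 0.28 in wild type (adjusted p = 0.294), where the mean of its probes gave 0.52 (adjusted p = 0.00383). The call in 35S:YFP-AFL1 ended without any of 4 of the 6 arrays of that genotype, with 0.64 to 0.71. The ligase gene HRD1A (AT3G16090) had -0.17 in 35S:YFP-AFL1 (95% interval -0.42 to 0.08) and -0.22 in wild type (-0.43 to 0.00). The lectin gene OS9 (AT5G35080), which selects glycoproteins for removal, had -0.14 (-0.41 to 0.13) and -0.13 (-0.37 to 0.10), so that a 2-fold change of either gene lay outside the intervals. DER2.1 (AT4G21810), another derlin gene, had -0.35 and -0.14 without a call.

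BI1 (AT5G47120), BAX inhibitor 1, is an ER membrane protein that restrains cell death under ER stress. It read 2.98, 3.0 and 2.70 at low water potential and 1.12, 1.11 and 1.05 on control plates in 35S:YFP-AFL1, and 2.75, 2.49, 2.67 and 2.73 at low water potential and 1.29, 1.34, 0.88 and 1.06 on control plates in wild type. Stress and control arrays were far apart in both genotypes. BI1 rose by 1.80 ± 0.14 in 35S:YFP-AFL1 (adjusted p = 1.47e-07) and by 1.52 ± 0.12 in wild type (adjusted p = 1.75e-07), and its 3 probes gave values between 1.31 and 1.88.

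Some ER genes outside the 35 had larger changes. Of 30 tested genes of a wider list of ER folding and degradation, 15 rose and 4 fell in 35S:YFP-AFL1 and 12 rose and 3 fell in wild type (63.3% and 50% called, against 63.3% and 64.1% of all genes). HSP22.0, the small heat shock protein of the ER, was at least 222-fold higher in 35S:YFP-AFL1 and at least 202-fold higher in wild type, being below background on all control arrays. UBC32, a ubiquitin-conjugating enzyme of ER-associated degradation, rose by 3.43 ± 0.10 and 3.09 ± 0.09. HRD1B, the paralog of HRD1A, rose by 1.43 and 1.50, and CDC48A, the ATPase that extracts ubiquitinated proteins, rose by 0.95 and 0.95. These degradation genes were named for their large wild-type responses within the wider list, so their rise does not describe degradation genes as a group. Among the 35, HRD1A, OS9 and DER2.1 had no call. The derlin gene DER2.2 of the wider list, named after its values were seen, rose by 0.52 in 35S:YFP-AFL1 and by 0.72 in wild type. TIN1, a gene known to be induced by tunicamycin, an agent that blocks glycosylation in the ER, rose by 1.89 and 1.88. PDIL5-2 fell by 1.1 in 35S:YFP-AFL1 and by 1.55 in wild type. PDIL1-1, named after its values were seen because it is a close relative of PDIL1-2, rose by 1.08 and 0.55. PDIL1-5, also named after its values were seen, went the other way, with -1.12 in 35S:YFP-AFL1 and -0.65 in wild type, both called.

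Cytosolic heat shock genes had larger values, as a description without a test of the difference. Of 10 tested, 8 rose and 0 fell in 35S:YFP-AFL1, against 30.1% of all genes called higher and 33.3% lower. In wild type 8 rose and 1 fell, against 30.7% and 33.4%. The medians were 2.46 and 2.22, against 0.74 and 0.38 for the BIP group. HSP17.4, a small heat shock protein of the cytosol, rose by 9.55 in 35S:YFP-AFL1 and by 8.33 in wild type. Its control levels were near background, being well above it on 2 of 3 arrays in 35S:YFP-AFL1 and 3 of 4 in wild type. HSP17.6A and HSP17.6II were at least 174-fold and at least 64.7-fold higher in 35S:YFP-AFL1, being below background on all control arrays there. In wild type, where 2 of 4 control arrays were above background for HSP17.6A and 1 of 4 for HSP17.6II, the fitted values were 6.61 and 5.55, so that bounds and fitted values are not comparable between the genotypes.

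Tissue markers moved with the treatment. The signal of the 6 tested shoot markers, summed relative to the 75th percentile, ran from 107 to 137 at low water potential and from 317 to 345 on control plates in 35S:YFP-AFL1, and from 112 to 202 and from 319 to 368 in wild type. For the 6 tested root markers the sums were 35.7 to 40.2 at low water potential and 48.6 to 62.4 on control plates in 35S:YFP-AFL1, and 36.3 to 65.8 and 61.2 to 69.3 in wild type. All 6 shoot markers fell in both genotypes, and of the root markers 4 fell in 35S:YFP-AFL1 and 3 in wild type. Of all genes, 33.3% and 33.4% were called lower. The root hair gene COBL9 rose by 0.68 in 35S:YFP-AFL1 (adjusted p = 0.00641) and by 0.59 in wild type (adjusted p = 0.0065). PYK10 was by far the brightest root marker, with a level of 5.14 at low water potential and 5.76 on control plates in 35S:YFP-AFL1 and 5.58 and 5.99 in wild type, so that the root sums mostly follow it. SPCH and SMB, which mark early stomatal cells and the root cap, were above background on no array. Their part in the responses of the ER genes was not tested.

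No member differed between the genotypes by the main test. On control plates 0 of 34 were called, against 0.0218% of all genes, and 4 had an unadjusted p under 0.05, as had 11.3% of all genes. At low water potential 0 were called, against 2.17% of all genes, and 5 had an unadjusted p under 0.05, against 20.2%. AFL1 itself was not called between the genotypes in that treatment. For the difference of the stress responses 0 were called, against 0% of all genes, and 2 had an unadjusted p under 0.05, BZIP28 and CRT1B, against 9.73% of all genes. All 18 members called in wild type had a call of the same sign in 35S:YFP-AFL1, 81.8% of its 22 calls, and over all genes 86.2% of wild-type calls and 87.3% of 35S:YFP-AFL1 calls were shared in direction. The 4 genes called in 35S:YFP-AFL1 alone, BIP2, PDIL2-3, CRT1B and EBS5, had adjusted p-values of 0.471 to 0.715 for the difference of the responses.

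At low water potential the genotype differences farthest from 0 were those of NAC062, ERDJ3A (0.70, adjusted p = 0.217), BIP2 (0.65, adjusted p = 0.242), EBS5 (0.50, adjusted p = 0.273) and BZIP60, and on control plates those of BZIP60, NAC062 and ERO1 (-0.58). NAC062 was at -1.10 at low water potential in 35S:YFP-AFL1 relative to wild type (95% interval -2.31 to 0.10, adjusted p = 0.286) and at -0.60 on control plates (-1.80 to 0.61, adjusted p = 0.72). BZIP60 was at -0.48 at low water potential (-1.02 to 0.07, adjusted p = 0.31) and at -0.68 on control plates (-1.23 to -0.14, adjusted p = 0.32). Arrays of the genotypes did not overlap for BZIP60 at low water potential, lower in 35S:YFP-AFL1, nor for DER1, higher by 0.29 (0.02 to 0.56, adjusted p = 0.213), and such a gap was seen in 14.5% of all genes. On control plates 6 members did not overlap, against 13.6% of all genes. With the slide as a block, which sets the 35S:YFP-AFL1 arrays against wild-type replicate 1 of the same slide, NAC062 had 0.23 at low water potential and 0.98 on control plates, and BZIP60 had -0.13 and 0.09. The sign for NAC062 was thus positive in both treatments within slides and negative across them.

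Without both wild-type replicate 1 arrays, a setting chosen after seeing the data, more members were called between genotypes. At low water potential 11 were called, 8 higher and 3 lower in 35S:YFP-AFL1, against 22.7% of all genes. The higher ones were BIP2, SHD, ERDJ3A, AT5G07340, PDIL1-2, PDIL2-3, IRE1B and BZIP17, by 0.38 to 0.96, and the lower ones were BZIP60 (-0.59), NAC062 (-1.55) and DER2.1 (-0.63). On control plates 4 were called, against 7.64% of all genes: PDIL1-2 (0.43) and AT5G07340 (0.37) were higher, and BZIP60 (-0.94) and NAC062 (-1.12) were lower. In that setting every 35S:YFP-AFL1 array is on slides 4 and 5 and every wild-type array on slides 1 to 3, so that genotype and slide cannot be told apart.

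The stress responses also changed when the slide was fitted. The wild-type values then set 1 stress array against 1 control array, both on slide 2. An effect of the slide and the use of fewer arrays can therefore not be told apart. With the slide as a block, 12 members were called in wild type, 11 higher and 1 lower, against 47.6% of all genes. In 35S:YFP-AFL1, 10 were called, 5 higher and 5 lower, against 35.9% of all genes. That value for 35S:YFP-AFL1 rests on single wild-type arrays, since treatment and slide coincide in this genotype. Its slides are linked only through wild-type replicate 1 of each treatment and the wild-type stress and control arrays of slide 2. Under it ERDJ3A (2.31), NAC089 (2.89), BI1 (1.76), ERO1 (1.70), DER1 (1.05) and the falls of ERO2 (-1.25) and AT5G07340 (-1.0) remained called, whereas the other 15 calls were lost. Of these, SDF2 (0.03), PDIL2-3 (0.03), PDIL1-3 (0.16), UNE5 (0.18), PDIL1-2 (0.36), BZIP17 (0.43), BIP2 (0.44), BZIP60 (0.55), BZIP28 (0.60) and BIP1 (0.72) had values below those without the block, and PDIL2-2 changed sign (-0.36, adjusted p = 0.434). The lost calls of IRE1A (0.70), EBS5 (0.81), IRE1B (1.13) and CRT1B (-0.51) had values at least as far from 0 as without it. SHD (-0.85), CRT1A (-1.31) and CRT3 (-0.86) became lower calls. Without both wild-type replicate 1 arrays, 19 members were called in wild type, 14 higher and 5 lower, against 66.1% of all genes, with SHD (-0.43), CRT1A (-0.58) and CRT3 (-0.44) among the lower ones and SDF2 and ERO1 no longer called.

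**Figure D5:**
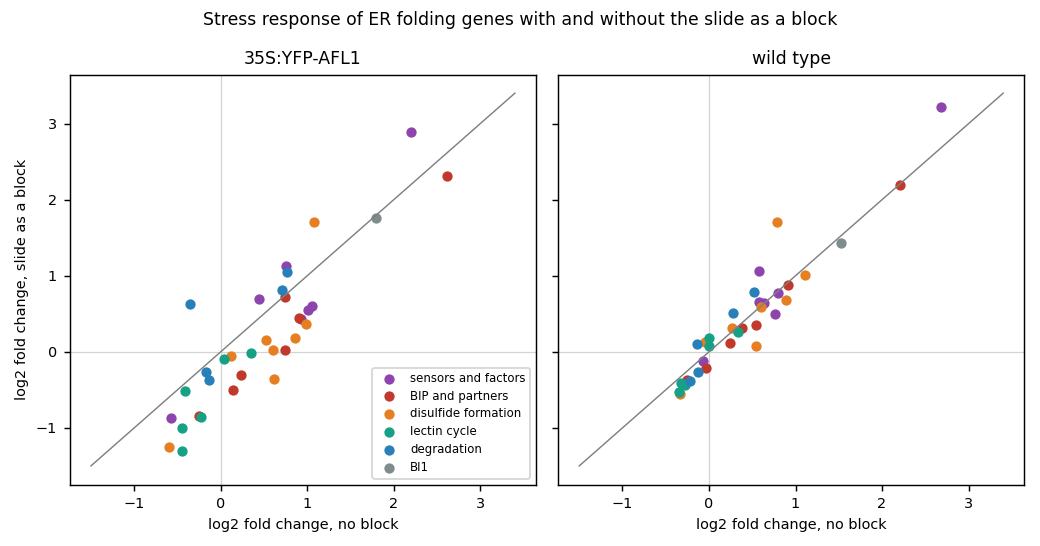
Log2 fold change, low water potential over control, without the slide (x axis) and with the slide as a block (y axis), 1 point per tested gene, coloured by role, for 35S:YFP-AFL1 (left) and wild type (right); the diagonal marks equal values. Most 35S:YFP-AFL1 points lie below the diagonal and most wild-type points lie closer to it, while NAC089, ERDJ3A and BI1 are at the upper right in both genotypes. With the block, the wild-type values set 1 stress array against 1 control array, both on slide 2.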

How the data were processed

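The deposited files were single-colour Agilent scanner outputs, 1 per array, and a table of all samples. Per the file headers and the submitters' processing notes, the spot intensity values are the authors' output of Feature Extraction 10.7.1.1 (Agilent), corrected for background array by array. The deposited table held the same intensity values (largest relative difference 0.000599), linear, uncentred and not normalized between arrays. Its column medians ran from 152.5 to 320.5, and its scale, centring and direction were settled by that match.

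Processed signals were divided by the 75th percentile of the non-control spots of the array and taken as log2. Spots marked as outliers were dropped where another spot of the probe remained. Probes that cleared background on 3 or more arrays of some group were kept (29098 of 43603), and the brightest stood for a gene. Accessions without versions were matched to the RefSeq gene table of TAIR10.1, which named a gene for 34358 probes (78.8%). No coordinates are given, since the design names an older build. The intensities give no depth, and the number of arrays limits the precision.

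A fit of 4 group means to all 14 arrays was made with limma 3.58.1 in R 4.3.3 (10 residual degrees of freedom), giving 5 comparisons with Benjamini-Hochberg adjustment over 18307 genes. It was tested on simulated data. Any member could be named. Arrays are given for the BIP genes, the sensors and factors and, in other roles, up to 3 called members with the largest changes, and of the wider lists up to 6 ER and 3 cytosolic genes with the largest wild-type response. PDIL1-1, PDIL1-5 and DER2.2 were named outside that rule. Members and lists were chosen with earlier results of these data known. Alternatives changed background correction (normexp with offset 50, on median spot signals), scaling, filters, probes, slide, scan day, replicate block, the arrays fitted and single arrays. Slide and scan day came from the file headers.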

Additional observations from a re-analysis of the deposited data

Results flagged for a closer look

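In 70 sets of 4 wild-type arrays, that is 35 genes in 2 treatments, 8 had an array whose gap to the nearest other array was wide relative to the range of the set, by Dixon's criterion, which flags about 1 in 20 sets by chance. Wild-type replicate 1, on slides 4 and 5 with the 35S:YFP-AFL1 arrays, was that array in 7 of the 8. At low water potential its log2 level was 1.31 for ERDJ3B (others 0.64 to 0.69), 2.20 for CRT1A (1.30 to 1.45), 2.10 for PDIL1-2 (1.18 to 1.31), 3.49 for UNE5 (2.79 to 2.83) and 0.79 for PDIL2-3 (-0.04 to 0.08). On control plates its level was 0.66 for BIP1 (others 0.54 to 0.55) and 2.36 for SDF2 (2.62 to 2.66). The remaining value was that of NAC089 on wild-type control replicate 4, -2.18, against -1.51 to -1.40 on the other 3 arrays. The part of the slide in these values was not tested.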

How the results depend on the processing

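Calls in every alternative run were kept in wild type by 7 of 18 members (BIP1, ERDJ3A, PDIL1-2, UNE5, BZIP28, NAC089 and BI1) over 28 alternatives, and in 35S:YFP-AFL1 by 6 of 22 (ERDJ3A, ERO1, ERO2, NAC089, DER1 and BI1) over 27. Many of these runs could alter only the p-value. Leaving out arrays of the other genotype, and in 35S:YFP-AFL1 the scan-day and replicate blocks, left the fold changes as they were. Signs that turned with a call involved were PDIL2-2 in 35S:YFP-AFL1 with the slide as a block (-0.36) and P58IPK in wild type with quantile normalization (0.31); the cause was not tested. Members called in the stress response fell to 9 within scan day 1 and 10 within scan day 2 in wild type, with 7683 genes on day 2, and to 10 members and 6565 genes in 35S:YFP-AFL1 with the slide as a block; day 1 holds 1 wild-type stress array and day 2 holds 1 wild-type control array, each assumed to vary like the other groups, so these day values test an arm of 1 array. Leaving out 1 array gave 17 to 26 members and 10592 to 12226 genes in 35S:YFP-AFL1, and 14 to 20 members and 11030 to 12072 genes in wild type.

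For the genotype difference on control plates, 4 genes became 7 with quantile normalization, 34 with the slide and 1 with the scan day as a block, 18 within scan day 2, 2 with the replicate block, 1399 (4 members) with wild type from slides 1 to 3 only, and 2 to 536 (0 to 1 members) without single arrays, 536 without wild-type control replicate 1. At low water potential, 397 genes became 596 with normexp, 237 with no filter, 62 with the slide and 252 with the scan day as a block, 1 within scan day 2, 199 with the replicate block, 1 with only the groups compared, 4148 (11 members) with wild type from slides 1 to 3, and 12 to 3523 (0 to 8 members) without single arrays, 3523 without wild-type stress replicate 1 and 12 without 35S:YFP-AFL1 stress replicate 3. For the difference of the responses, 0 genes became 20 with the slide as a block, 11 within scan day 2, 1173 with wild type from slides 1 to 3, and 0 to 754 without single arrays, with 0 members in each.

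Replicate numbers were not used as pairs in the main fit. Same-numbered arrays of 2 groups correlated at -0.12 to 0.40 in their deviations from the group means. The highest value was that of replicate 1 of wild-type stress and control. Replicate 1 of 35S:YFP-AFL1 control and wild-type control, both on slide 4, had 0.25. Whether the numbers mark pairs was not settled. With the replicate block, 22 members and 11494 genes were called in the stress response of 35S:YFP-AFL1, 16 members and 11590 genes in that of wild type, and 0 members in the other comparisons. The fall of AT5G07340 (-0.35, adjusted p = 0.0579) and ERO2 (-0.33, adjusted p = 0.0722) in wild type were the calls that ended. Signal over background limits BIP3, which gave no test, and the control level of ERDJ3A in wild type.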
